A study of Solanum lycopersicum with 32 samples.

Results

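In leaves of the tomato cultivar M82, 2966 of 81781 genomic regions with acetylated lysine 18 of histone H3 (H3K18ac) carried a peak of this mark after 1 h of heat and at neither 0 h nor 6 h. To find them, all H3K18ac peaks of the 6 deposited lists on chromosomes 1 to 12 were merged, and regions of at least 150 bp were kept where both 1 h lists and none of the 0 h and 6 h lists had an overlapping peak. They made up 3.63% of all merged regions. Regions chosen by the same rule for the other times numbered 912 at 0 h alone and 1750 at 6 h alone, while 47044 regions had a peak in all 6 libraries. Because H3K18ac itself chose the regions, its values are given as a description without a test.

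Wild-type M82 plants were 4 weeks old, had been raised under 16 h of light at 24 °C and were placed at 45 °C for 0, 1 or 6 h before the fourth leaves were taken. Chromatin immunoprecipitation with sequencing (ChIP-seq) was done for H3K18ac, for 2 further acetylations (H3K9ac and H3K27ac), for trimethylated lysine 4 (H3K4me3) and for RNA polymerase II (RNAPII), with 2 libraries per target and time, labelled as biological replicates. The 0 h plants were unheated, but no unheated plants accompanied the heated ones at 1 h and 6 h. An effect of heat and one of the time of day therefore cannot be told apart. The lists carry no gene names, so the leaf label could not be checked against marker genes.

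Lysine acetylation removes a positive charge from the histone tail and is found in chromatin that is open and transcribed. H3K9ac, H3K18ac and H3K27ac are written by histone acetyltransferases, are removed by deacetylases within minutes to hours, and in plants lie mainly over the beginnings of active genes and at some distal regulatory elements. H3K4me3 is set around the start of transcribed genes and is a more lasting mark. RNAPII is the enzyme that transcribes protein-coding genes, and its peaks show where it is bound to the DNA.

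The 30 lists held between 40601 and 126475 peaks on the 12 chromosomes. A relative depth was taken as the lowest background in fragments over a base, recovered from the fold and p-value columns, and for H3K18ac it was 7.54 and 7.04 at 0 h, 11.8 and 8.61 after 1 h, and for 6 h it was 13.96 and 8.33. The labelled replicates differed by less than the sampling noise, with a mean chi-square per matched peak of 0.295 to 0.705 in the 15 pairs of the same target and time, against 1.04 to 10.7 in the 60 pairs of different times. Each pair was therefore counted as 1 sample, both libraries are printed and no SD is given. Summit counts are maxima and vary less than plain counts, so a small spread between plants would not be seen in this comparison.

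The regions at 1 h alone were narrow and of modest H3K18ac enrichment. Their median width was 395 bp, with a range of 175 to 3896 bp, whereas regions with a peak in all 6 libraries had a median of 2333 bp. The lower of their 2 fold enrichments over the local background in the 1 h libraries had a median of 2.12 and ran from 1.31 to 8.29. Within its own list the median region stood at percentile 29.3 of the fold in both libraries. At the summit a median of 42 fragments lay over a background of 16.2 in replicate 1, and 31 over 12.8 in replicate 2. These are weak sites of a broad mark, with a few strong ones among them: this lower fold was at least 3 in 327 regions and at least 5 in 19.

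Both 1 h libraries chose the regions, so the values of their peaks are linked by the rule. The summits lay within 100 bp of each other in 2236 regions (75.4%), with a median distance of 43.5 bp. In 2786 regions (93.9%) the peak had a q-value of at most 0.05 in both libraries. Near the limits of the rule, 1650 regions had a peak in both 1 h libraries and in exactly 1 of the 4 other libraries, and 2876 had a peak in only 1 of the 2 libraries of 1 h and in no other. No merged region was under 150 bp, so the width limit removed none. The H3K18ac libraries of 0 h had a lower depth than those of 1 h. The relative depths given above are without the scaling applied in peak calling. As scaled for the calls, the H3K18ac lists of 1 h were deeper than those of 0 h and of 6 h at each replicate number. The part of depth in the choice of regions was not tested, against either 0 h or 6 h.

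Most of the regions lay beside chromatin that was acetylated at all times. The median distance to the nearest region with H3K18ac in all 6 libraries was 239 bp. Of the regions, 68.9% lay within 500 bp of such a neighbour and 80.7% within 1000 bp, and 32.6% had one within 1000 bp on both sides. For regions at 0 h alone or 6 h alone, of similar median width (353.5 bp), these shares were 48.4%, 59.99% and 11.2%. They were 56.0%, 65.8% and 21.1% for all other H3K18ac regions, and 56.1%, 66.9% and 19.6% for the 32961 other regions no wider than 95% of the regions at 1 h alone. These differences were not tested. Counting any H3K18ac peak of 0 h or 6 h, 340 of the 2966 regions had none within 1000 bp. In the plot of coverage against distance, the central gap in the H3K18ac peaks of 0 h and 6 h, occupied at 1 h, follows from the rule. Each region was turned to put its nearest region of all 6 libraries on the right, so the side of this neighbour is also set.

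**Figure D1:**
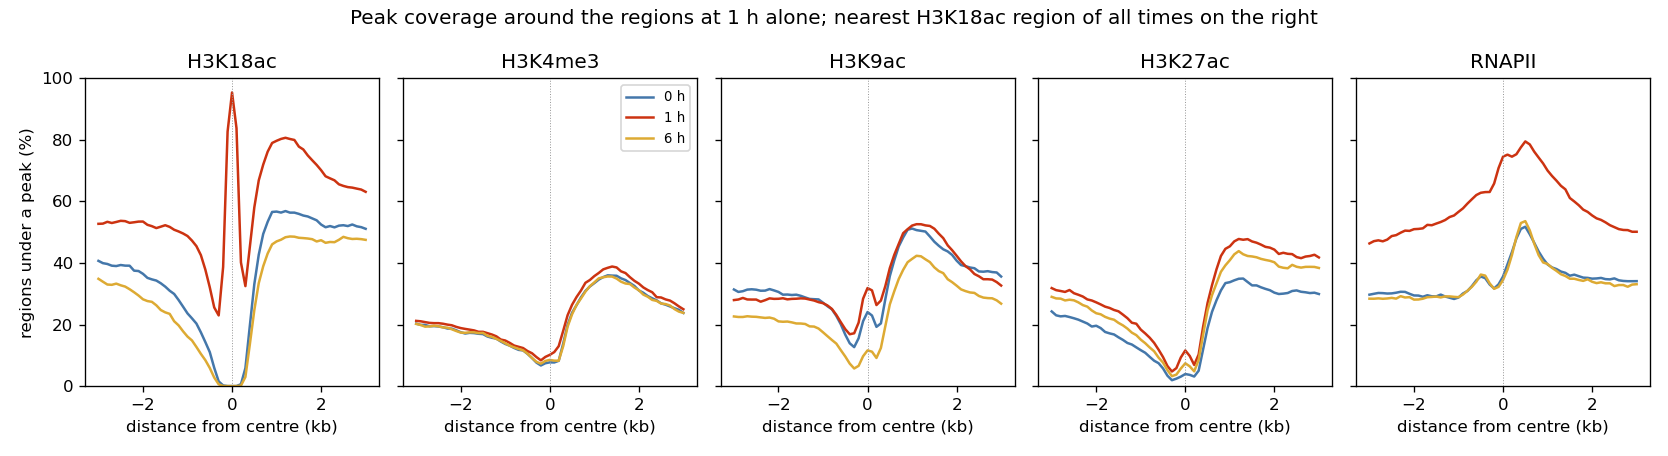
Share of the regions at 1 h alone that lie under a peak (vertical axis, %; mean of the 2 libraries of a time) against the distance from the centre of the region (horizontal axis, kb), with the nearest H3K18ac region of all 6 libraries on the right. At the centre RNAPII peaks covered 35.6% of the regions at 0 h, 74.6% at 1 h and 34.5% at 6 h, and the 1 h curve of RNAPII lies above the other times over the whole 6 kb shown.

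RNAPII was the target found most often at these regions. A peak of RNAPII overlapped 61.4% and 60.4% of them in the 0 h libraries, 87.9% and 87.7% in those of 1 h, and 63.4% and 62.5% in those of 6 h. Both 1 h libraries were thus above all 4 others, and 0 h and 6 h were close to each other. Over the 78815 other H3K18ac regions the mean share was 55.7%, 61.5% and 54.7% in time order. The rise at 1 h, against the mean of 0 h and 6 h, was 25.9 percentage points at the regions and 6.33 points elsewhere, which leaves an excess of 19.6 points. The excess was 19.5 points from the libraries of replicate 1 and 19.7 from those of replicate 2.

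H3K9ac and RNAPII had the larger excesses of the 4, and their order depended on the setting. Its peaks overlapped 36.3% and 29.6% of the regions at 0 h, 41.6% and 43.8% after 1 h, and 16.4% and 17.7% after 6 h. The 1 h libraries were the highest, but the 0 h libraries were nearer to them than those of 6 h. At the other regions H3K9ac went the opposite way, with means of 52.4%, 42.0% and 48.5% in time order, and its 1 h lists covered 51.9 and 54.1 Mb against 75.1 and 70.1 Mb at 0 h. The change at 1 h was therefore 17.7 points at the regions and -8.50 points elsewhere, an excess of 26.2 points. The excess of H3K9ac thus comes in part from the fall at the other regions. The relative depth of H3K9ac was 7.40 and 7.38 at 0 h, 4.47 and 5.53 after 1 h, and 5.15 and 6.49 after 6 h. The 1 h lists were thus the shallowest at each replicate number, and the part of depth in this fall was not tested. Against the other regions no wider than 95% of the regions at 1 h alone, the excess of H3K9ac was 20.2 points. RNAPII had the larger value with at least 50% of a region covered (24.5 against 18.04 points), without reference regions (25.9 against 17.7), against regions at 0 h alone or 6 h alone (26.1 against 21.1) and with 0 h as the only comparison (21.1 against 20.2).

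H3K27ac was rare at the regions at every time. It overlapped 5.56% and 5.53% of them at 0 h, 17.9% and 14.8% after 1 h, and 10.3% and 8.56% after 6 h, whereas the other regions held it at 62.7%, 65.3% and 64.1%. The share was thus highest at 1 h and lay between the other times at 6 h. The excess at 1 h was 6.98 points, with 7.88 and 6.08 points from replicates 1 and 2. Choosing and comparing regions with replicate 2 alone, which gave 7516 regions, it was 4.44 points, and against regions at 0 h alone or 6 h alone it was 13.1 points. With at least 50% of a region required to be covered it was 1.16 points, and the share after 1 h was then 10.4% and 8.87%.

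H3K4me3 overlapped 8.87% and 9.74% of the regions at 0 h, 14.9% and 16.7% after 1 h, and 9.47% and 10.5% after 6 h, and stayed near 36% elsewhere (36.8%, 35.9% and 36.6%). Both 1 h libraries were above the others, with an excess of 6.87 points. In the 340 regions with no H3K18ac peak of 0 h or 6 h within 1000 bp this excess was -0.10 points, with H3K4me3 at 12.4% in each 0 h library, 15.0% and 15.3% after 1 h, and a mean of 19.1% after 6 h. With at least 50% of a region covered, the excess of H3K4me3 over all regions was 2.35 points. In these 340 regions the excess was 29.8 points for RNAPII, 37.0 points for H3K9ac and 7.01 points for H3K27ac.

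**Figure D2:**
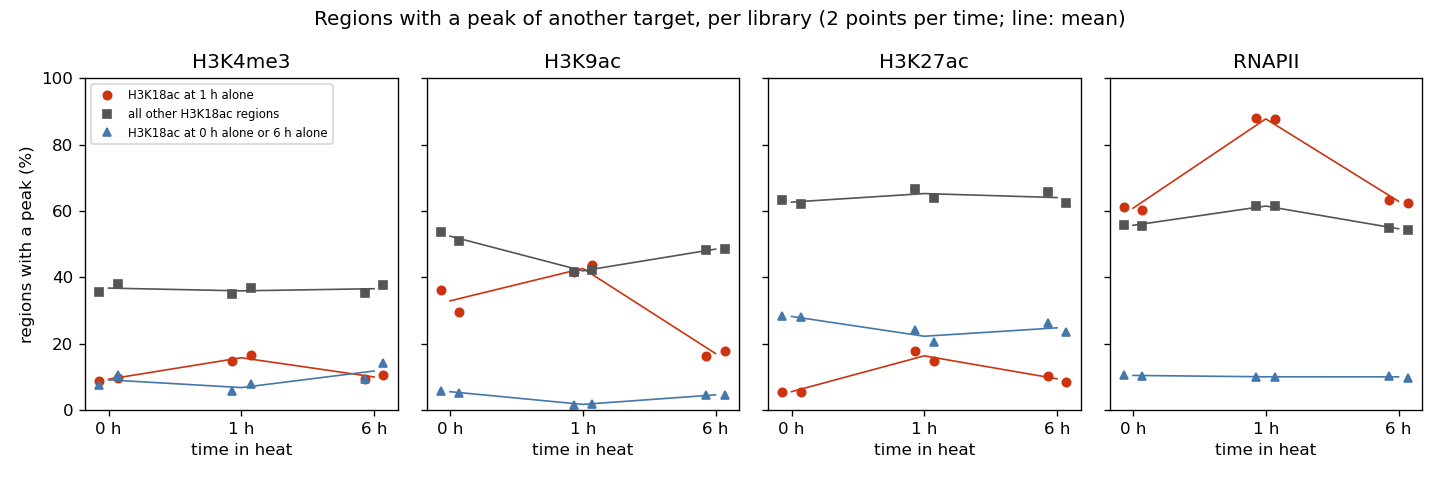
Percentage of regions overlapped by a peak (vertical axis) at each time in heat (0, 1 and 6 h) for 4 targets, in the 2966 regions at 1 h alone, the 78815 other regions and the 2662 regions at 0 h alone or 6 h alone. A point is 1 library and a line joins the means of the 2 libraries. In each panel the 1 h points of the regions at 1 h alone are their highest, and RNAPII rises to 87.9% and 87.7%.

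The question whether the 4 other targets peaked at 1 h at the same places was tested over times. The mean excess over the 4 targets was 14.9 points, and an exact two-sided permutation test over the 81 arrangements of the 3 times gave p = 0.0123, the smallest value that this test can give. It exchanges times independently in each target, although the targets share their 3 times and 1 input. With times exchanged together in all targets only 3 arrangements remain, and the exact permutation p was 0.333, the smallest possible. For a single target the 3 times allow no p-value under 0.333, which each of the 4 had in the exact permutation test (adjusted p = 0.333 over the 4). All lists were called against the same 0 h input, and a change in the background with heat, which all targets would share, cannot be told apart from changes in the targets themselves.

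Width affects whether a region is touched by a peak. Against the 32961 other regions no wider than 95% of the regions at 1 h alone, RNAPII was more frequent by a mean of 38.4 points over the 6 libraries (lowest 30.8, highest 50.4), and H3K27ac was less frequent by 11.9 to 22.9 points. H3K9ac was more frequent in 5 of the 6 libraries, with differences from -0.36 to 26.0 points, and those of H3K4me3 ran from -4.44 to 2.22 points. Counting a pair of libraries once, the exact sign-flip permutation test over 3 times gave p = 0.25 for RNAPII and for H3K27ac, the smallest it can give. Taking all 6 libraries as labelled, the exact sign-flip p was 0.0312 for each (adjusted p = 0.0469 over 12 such tests), but the pairs agree within sampling noise and may not add independent samples. Against the regions at 0 h alone or 6 h alone, RNAPII was more frequent by 50.1 to 77.8 points in all 6 libraries, H3K9ac by 11.9 to 42.0 points, and H3K27ac was less frequent by 5.60 to 22.7 points (exact p = 0.25 each). For H3K27ac these 2 classes differed, with means in time order of 8.61%, 8.11% and 8.22% at 0 h alone and 38.5%, 29.6% and 33.4% at 6 h alone. The regions at 1 h alone had 5.55%, 16.4% and 9.42%, so they were above those of 0 h alone at 1 h and 6 h. Regions whose H3K18ac was confined to 0 h or 6 h rarely had RNAPII, with means of 10.4%, 10.0% and 10.0% in time order. These level means join opposite courses. RNAPII was at 13.1%, 18.75% and 12.2% of the regions at 0 h alone, and at 9.06%, 5.49% and 8.89% of those at 6 h alone.

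RNAPII peaks also spread over the regions at 1 h. A single RNAPII peak contained the whole region in 17.4% and 15.6% of cases at 0 h, 53.2% and 53.4% after 1 h, and 15.2% and 14.7% after 6 h. The RNAPII peaks overlapping the regions had a median width of 851 and 809 bp at 0 h, 2103 and 2046 bp after 1 h, and 748 and 708 bp after 6 h. For the 2900 regions within 5000 bp of an H3K18ac region of all 6 libraries, the RNAPII peak reached that neighbour in 1059 and 1018 cases at 0 h, 1796 and 1794 after 1 h, and 1011 and 974 after 6 h. The RNAPII lists as a whole covered more of the genome at 1 h (89.6 and 88.8 Mb, against 71.1 and 68.4 Mb at 0 h), and the widening at the regions was not tested against that of the whole lists.

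Sorting the regions by the times at which each target was found shows where RNAPII differed from its share over all H3K18ac regions. It was present in all 6 libraries at 1466 regions, and this share of 49.4% was near the 47.9% of all H3K18ac regions. Its libraries of a time disagreed at 668 regions, and at 260 regions it was in none (8.77%, against 31.7%). At 382 regions (12.9%) it had the same pattern as H3K18ac, with a peak in both 1 h libraries and in no other, compared with 4.13% of all H3K18ac regions. A further 127 regions had it at 1 h and 6 h but not at 0 h (4.28%, against 0.993%). All H3K18ac regions include much wider ones. Among the other regions no wider than 95% of the regions at 1 h alone, RNAPII was in all 6 libraries at 21.7% and in none at 55.0%. It was at 1 h alone at 5.09% of them, and at 1 h and 6 h at 0.931%. The share with RNAPII at all times was thus near that of all H3K18ac regions but above that of narrow ones.

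The same pattern of a peak at 1 h alone was found for H3K9ac at 317 regions (10.7%, against 1% of all H3K18ac regions), for H3K4me3 at 96 (3.24%, against 0.928%) and for H3K27ac at 94 (3.17%, against 0.817%). At 169 regions H3K9ac was present at 0 h and 1 h and had gone by 6 h (5.70%, against 1.06%). In all, 776 regions shared the pattern with at least 1 other target (26.2%, against 6.54% of all H3K18ac regions), 109 with at least 2 (3.67%, against 0.333%) and 4 with 3 (0.135%, against 0.00856%), and no region shared it with all 4. For 2190 regions (73.8%) H3K18ac alone showed it. Regions of each other target were also merged and selected by their own peaks. The regions at 1 h alone of H3K9ac overlapped 7.35% of those of H3K18ac, which took in 18.3% of the 1170 H3K9ac regions, and RNAPII overlapped 5.09%, taking in 2.11% of its 7002 regions. H3K27ac overlapped 3.17%, which took in 3.54% of its 2794 regions, and H3K4me3 overlapped 0.37%, or 1.59% of its 692. By this count 11 regions matched for H3K4me3 and 151 for RNAPII, against 96 and 382 by overlap with single peaks. Overlap at 1 h alone thus does not show a new peak. A peak called nearby at other times may reach the region only at 1 h.

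**Figure D3:**
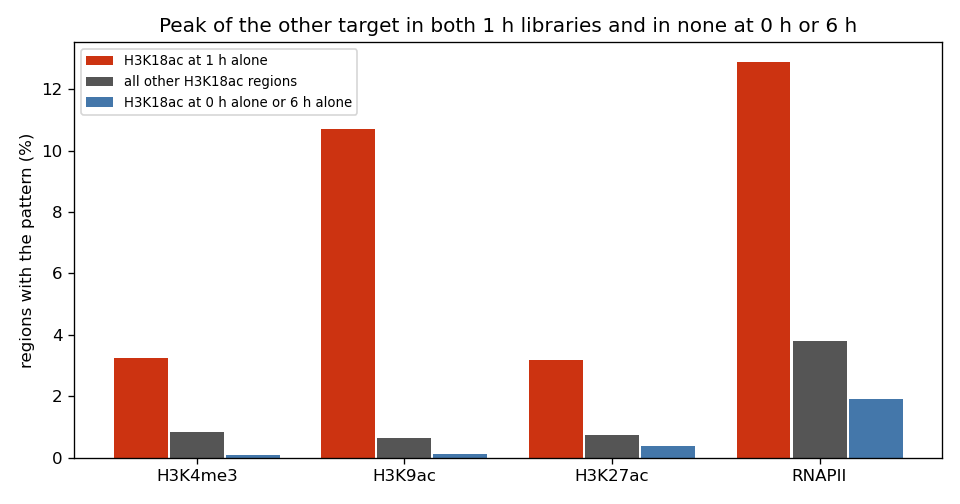
Percentage of regions (vertical axis) in which the target named below the bars had a peak in both 1 h libraries and in none at 0 h and 6 h, in the 2966 regions at 1 h alone, the 78815 other regions and the 2662 regions at 0 h alone or 6 h alone. A bar is 1 count over the 6 libraries of a target, so it has no error. RNAPII (12.9%) and H3K9ac (10.7%) showed the pattern most often.

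At 1 h the most common combination was H3K18ac with RNAPII and none of the other 3 marks, counting a target where both libraries had a peak. It was found in 1407 regions (47.4%), against 10.6% of all H3K18ac regions. RNAPII with H3K9ac and no other followed with 655 regions (22.1%, against 3.17%). All 4 other targets were together in 141 regions (4.75%), whereas this was the most common state over all H3K18ac regions (26.6%). None of the 4 was present at 330 regions (11.1%, against 25.3%). All H3K18ac regions include much wider ones. Of the 2662 regions at 0 h alone or 6 h alone, of similar median width, 0.188% had all 4 targets and 76.6% had none. RNAPII without the 3 marks was at 5.94% of them, and RNAPII with H3K9ac and no other at 0.263%.

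A split by H3K4me3 bears on this. H3K4me3 was present in both 1 h libraries at 383 regions (12.9%, against 33.3% of all H3K18ac regions), and 1240 regions (41.8%, against 46.3%) had no H3K4me3 peak within 1000 bp at 1 h. At the regions of 0 h alone or 6 h alone these shares were 5.22% and 74.0%. Of these 1240 regions RNAPII was at 54.4% and 53.6% before heat, 83.5% and 83.9% after 1 h, and 56.8% and 55.8% after 6 h. Other H3K18ac regions without H3K4me3 nearby had RNAPII at 32.2% and 32.0%, 36.9% and 37.1%, and 31.0% and 30.5%. Where H3K4me3 was present, H3K9ac was at 77.5% of the 383 regions in each 1 h library (70.8% had it in both), compared with 52.5% and 49.1% before heat and 49.6% and 51.7% after 6 h, and H3K27ac rose from 30.8% and 29.8% before heat to 59.8% and 55.4% after 1 h. In H3K4me3-marked regions elsewhere H3K9ac went from 91.2% and 90.4% before heat to 86.2% and 86.4% after 1 h.

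The regions were also split by RNAPII. At the 1675 regions with RNAPII in both 0 h libraries (56.5%, against 53.4% of all H3K18ac regions), H3K9ac was present at 49.7% and 42.1% before heat, 48.2% and 49.7% after 1 h, and 20.8% and 22.3% after 6 h. Here 0 h and 1 h overlapped, and only 6 h stood lower. At the 634 regions that had RNAPII in both 1 h libraries and in neither 0 h library (21.4%, against 6.31% of all H3K18ac regions), H3K9ac was at 17.2% and 11.8% before heat, 42.1% and 44.5% after 1 h, and 10.4% and 11.8% after 6 h. RNAPII itself was still found at 30.3% and 29.5% of these at 6 h. RNAPII was in neither 1 h library at 286 regions (9.64%, against 35.5% of all H3K18ac regions). There H3K9ac was at 12.9% and 9.09%, then 23.8% and 26.9%, then 9.79% and 12.2%.

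RNAPII and H3K9ac were found more often where H3K18ac at 1 h was higher. From the lower to the upper tercile of the regions by the lower of their 2 folds, RNAPII at 1 h went from 81.0% and 80.7% to 95.7% and 95.8%. H3K9ac at 1 h went from 26.4% and 27.8% to 61.7% and 64.7%. The same order was found at 0 h, where RNAPII was at 52.0% and 51.6% of the lower and 73.2% and 72.4% of the upper tercile. H3K27ac and H3K4me3 at 1 h were nearly the same in the lower and middle terciles (means of 13.51% and 13.50% for H3K27ac, 14.4% and 14.6% for H3K4me3) and were at 22.0% and 18.4% in the upper tercile. The upper tercile was wider, with a median of 480 bp against 353 bp, and the part of width in this order was not tested. Across the 2966 regions Spearman's rho was 0.28 between fold and width, 0.66 between the folds of the 2 libraries at 1 h and 0.00065 between fold and distance to the nearest region of all 6 libraries. Regions share their libraries and are not independent replicates, so no p-value is given.

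**Figure D4:**
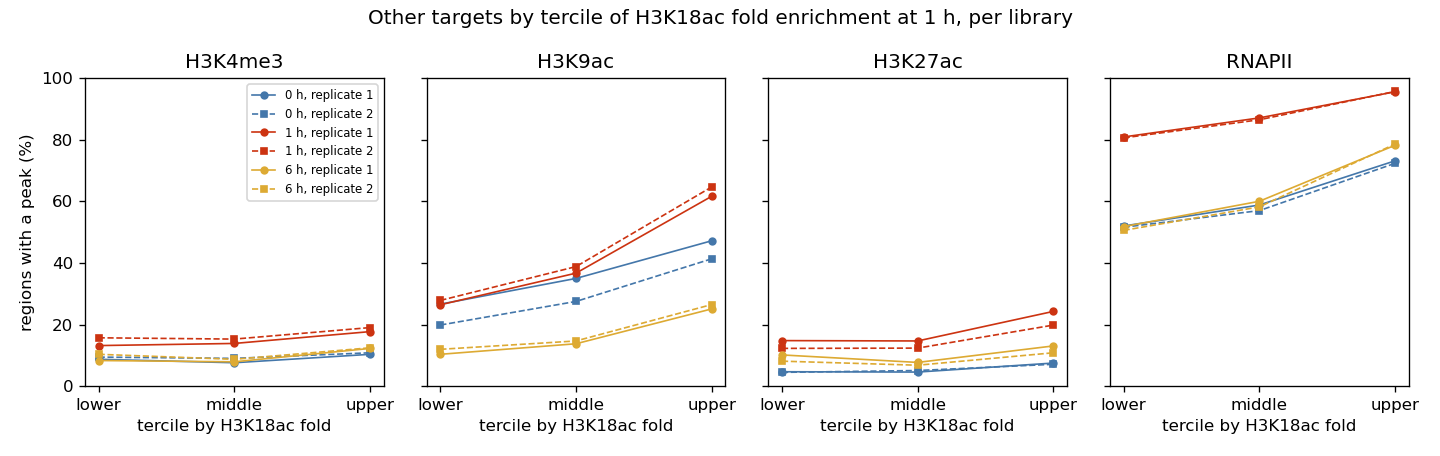
Percentage of regions with a peak (vertical axis) for terciles of the 2966 regions by the lower of their 2 H3K18ac fold enrichments at 1 h (horizontal axis), per target, time and library. H3K9ac at 1 h climbs from 26.4% and 27.8% in the lower to 61.7% and 64.7% in the upper tercile, and RNAPII at 1 h is above the other times in each tercile.

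The regions were spread over the 12 chromosomes in step with H3K18ac itself, with 3.22% (chromosome 10) to 4.21% (chromosome 11) of a chromosome's H3K18ac regions. Within chromosomes they lay in the H3K4me3-rich parts. Of 807 bins of 1 Mb, the 403 with the least H3K4me3 at 0 h held 2.87% of the regions, against 14.3% of the other H3K18ac regions and 25.8% of those at 0 h alone or 6 h alone. The 202 bins richest in H3K4me3 held 83.8% of the regions and 60.03% of the others, and 36.9% against 23.0% lay within 3 Mb of a chromosome end. These shares describe single sets of regions and were not tested.

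Single regions show the range of cases. They were named by 3 rules: the 10 highest by the lower of the 2 H3K18ac folds, the 5 widest, and the 10 with the most other targets at 1 h alone, which gave 20 distinct regions. Coordinates are those of the M82 assembly used by the authors and count from 1. Folds of different lists were not normalized to each other, and they are given only to show the strength of each peak. For the other targets a fold is that of the strongest overlapping peak, whose summit may lie outside the region. No gene was assigned, since the annotation at hand belongs to another assembly.

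The region with the most H3K18ac was chr1:80832851-80836285, 3435 bp wide, with folds of 10.4 and 8.29 in the 1 h libraries and 164 and 97 fragments at the summit. H3K9ac and H3K27ac were present there in both 1 h libraries only, H3K4me3 in no library, and RNAPII in all 6 libraries, with folds of 7.40 and 5.44 before heat, 18.1 and 13.7 after 1 h, and 9.09 and 10.9 after 6 h. It was thus a place with polymerase before heat where 3 acetylations were found at 1 h. The region chr12:61762183-61764525 was alike for H3K9ac, which had folds of 25.7 and 23.7 at 1 h and no peak at 0 h or 6 h, with RNAPII in all libraries and neither H3K4me3 nor H3K27ac in any. Of the 10 regions with the highest folds, 10 had RNAPII in both 1 h libraries, 8 had it in all 6, and 9 had H3K9ac in both 1 h libraries. H3K27ac was in both 1 h libraries at 8 of them, and H3K4me3 in all 6 libraries at 5. All 10 lay between 132 and 455 bp from a region of all 6 libraries. Of the 78815 other H3K18ac regions, 47.9% had RNAPII and 31.2% had H3K4me3 in all 6 libraries. The 1 h libraries had RNAPII at 61.5% and 61.6% of these, H3K9ac at 41.7% and 42.2%, and H3K27ac at 66.6% and 63.9%.

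At chr4:61047873-61048873 RNAPII was not found at 0 h. H3K18ac had folds of 6.49 and 6.63 at 1 h, H3K9ac and H3K27ac had the same pattern, and RNAPII had folds of 15.2 and 14.3 at 1 h and 3.53 and 3.02 at 6 h. At chr4:3137505-3138056 and chr9:4559680-4560191 both RNAPII and H3K9ac were called at 1 h alone, with RNAPII folds of 23.0 and 20.3 at the former and 22.5 at the latter in both libraries. H3K9ac had folds of 4.75 and 4.06 at the former, and of 3.97 and 25.7 at the latter, where its libraries differed widely. The weaker region chr5:1522974-1524844, with H3K18ac folds of 2.42 and 2.62, was 1 of the 4 at which 3 other targets shared the pattern: H3K9ac, H3K27ac and RNAPII had peaks in both libraries of 1 h and in no other, and H3K4me3 had none at any time.

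The widest region, chr11:7847419-7851314 (3896 bp), stood 6208 bp from the nearest region with H3K18ac at all times. H3K18ac had folds of 5.75 and 6.25 there at 1 h. H3K4me3, H3K9ac, H3K27ac and RNAPII had no peak at 0 h and a peak in both libraries of 1 h and of 6 h, with RNAPII folds of 20.1 and 20.7 at 1 h and 11.8 and 11.7 at 6 h, and H3K9ac folds of 13.1 and 12.6, then 4.47 and 3.12. The 4 other targets were thus gained at 1 h and still had peaks at 6 h, while the rule itself confined H3K18ac to 1 h. The region chr2:38567479-38570069 had RNAPII at folds of 1.93 and 1.88 before heat, 21.7 and 23.6 after 1 h, and 13.99 and 14.1 after 6 h, with H3K9ac in both libraries of 1 h and 6 h and H3K27ac at 1 h alone.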

How the data were processed

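Reads of 75 bp were trimmed, mapped to the M82 assembly and used for peak calling by the authors; their processing notes name Trimmomatic 0.38, Bowtie2 2.3.5, SAMtools 1.9, MACS2 2.2.7.1 and deepTools. Peaks were called in each library against 1 input of 0 h. The deposited lists hold narrow peaks down to a p-value of 0.05, with a fold enrichment (a ratio of pileup to local background), p-value and q-value as −log10 and a score. Of 32 samples, 30 had lists; H3K27me1 and input were not analysed here.

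Presence was an overlap of 1 bp. Fragments and backgrounds at summits were recovered from fold and p. The excess is the 1 h share minus the mean of 0 h and 6 h, less that of other regions, tested by exact permutation. Functions were tested on simulated lists. Work was done in Python 3.11.15 (scipy 1.17.1, pandas 2.3.3, numpy 2.4.6, plots by matplotlib 3.10.9). Alternatives were stricter q, equal list length, isolation, width, coverage, other references, single replicates and a replicate block. Named regions were the 10 of highest lower fold, the 5 widest and the 10 with most other targets at 1 h alone, with ties broken by fold. Regions, lists and rules were chosen with earlier results of these data known, and the comparison with narrow regions and the splits of the regions after seeing the data.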

Additional observations from a re-analysis of the deposited data

Results flagged for a closer look

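Between 0 h and 6 h H3K9ac moved in the opposite direction to H3K27ac and RNAPII at the 2966 regions, with no overlap between the libraries of the 2 times for these 3 targets. The libraries of H3K4me3 overlapped, with means of 9.31% and 9.98%. H3K9ac changed by -15.9 points, from 32.9% to 17.0% of the regions, whereas H3K27ac changed by 3.88 points, from 5.55% to 9.42%, and RNAPII by 2.09 points, from 60.9% to 62.9%. Over the 78815 other H3K18ac regions the mean share of H3K9ac also fell (52.4% to 48.5%) and that of H3K27ac rose (62.7% to 64.1%). RNAPII fell there (55.7% to 54.7%). The 32961 other narrow regions gave falls for H3K9ac (22.9% to 17.0%), H3K27ac (27.9% to 27.6%) and RNAPII (29.7% to 29.1%). H3K9ac lists were shallower after 6 h (relative depth 5.15, 6.49) than before heat (7.40, 7.38). Neither the part of depth in the fall of H3K9ac nor the difference between targets was tested.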

How the results depend on the processing

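The number of regions at 1 h alone depended on the neighbourhood and on the libraries required. It was 340 where no H3K18ac peak of 0 h or 6 h lay within 1000 bp, and without 1 of the replicates it was 6989 to 7516. Limiting q to 0.05 or 0.01 gave 2981 or 2939, which took in 93.9% and 80.2% of the regions, and 4050 with equal list lengths. Away from other H3K18ac peaks the excess of H3K4me3 was -0.10 points. With 0 h as the only comparison the mean excess over the 4 targets was 14.2 points with exact permutation p = 0.125, the smallest that 2 times allow. With times exchanged together in all targets, added after seeing the data, the mean excess of 14.9 points had exact permutation p = 0.333. Without 1 of the replicates this mean was 12.5 to 13.1 points. Under every other alternative run, all 4 excesses stayed above 0. With at least 50% of a region covered the mean excess was 11.5 points (exact p = 0.0247), and against other narrow regions, chosen after seeing the data, 13.01 points (exact p = 0.0123).

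Taking the libraries as labelled gave an exact permutation p of 1.98e-05, and with times exchanged within a replicate number (replicate block) the mean excess of 14.9 points had p = 0.000152, each the smallest possible. Library deviations correlated at -0.094 to 0.304 between times in 1 Mb bins, above 0.1 in 6 of 15 cases, all in H3K4me3 and H3K27ac. The block changed no call.

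Depth limits the lists: a region without a peak had too little enrichment for a call and is not shown to lack the mark.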

Other observations

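A small set of 85 regions lay in the H3K4me3-poor bins of 1 Mb. H3K9ac was present at 27.1% and 18.8% of them before heat, 72.9% and 71.8% after 1 h, and 32.9% and 37.6% after 6 h, against 36.5% and 29.9%, 40.7% and 43.0%, and 15.9% and 17.1% at the 2881 regions in the other bins. RNAPII went from 32.9% and 28.2% before heat to 83.5% and 78.8% after 1 h, and was at 57.6% and 49.4% after 6 h, in the 85 regions. The bins were split after the data were seen, and no test was made.

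Some of the regions lay in runs, with 1089 of the 2966 (36.7%) within 5000 bp of another. This share was not compared with that of other H3K18ac regions. There were 456 runs, and the largest held 6 regions. In the run at chr6:2722338-2728523 all 6 regions had RNAPII in both 1 h libraries and 1 had it in both 0 h libraries, while 5 had H3K9ac in both 1 h libraries and 0 in both 0 h libraries. In the run at chr1:1593436-1604150 RNAPII was in both libraries at 5 of 6 regions at 0 h and at 1 h alike. The bin of 1 Mb with the most regions was at chr1:1000001-2000000, with 39 among its 420 H3K18ac regions.

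Chromosome 4 held 6 of the 10 regions with the highest lower fold, but 17 of the highest 100 and 256 of all 2966, a count noticed after the named regions were seen.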
